A study of Saccharomyces cerevisiae with 118 samples.

Results

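The data described here were the RNA-seq profiles of budding yeast (Saccharomyces cerevisiae) cultured on acetate: 3 wild type samples grown in YP KOAc, a rich medium with potassium acetate as the carbon source, taken in log phase and after 48 h and 72 h of ageing. They were read beside 1 wild type sample aged for 72 h in YPD, which is the same rich medium with glucose, from the same sequencing lane, so that 4 of the 118 samples of the series were at issue. The members were chosen by medium, genotype and lane, as the labels give them. The study aged diploid cells of the mother enrichment program (MEP) in several media and asked whether the changes in gene expression that come with replicative age depend on the carbon source. All 38 wild type samples of the main table were used for reference, among them 3 glucose log phase samples, 4 glucose 48 h samples and the raffinose log and 48 h samples of the same lane. The remaining reference samples were glucose at 24 h, and galactose, fructose, sucrose and raffinose with galactose in log phase, at 24 h and at 48 h.

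In the MEP, estradiol activates a Cre recombinase that is expressed from the SCW11 promoter, which is active in daughter cells, and Cre then disrupts UBC9 and CDC20, so that daughters stop dividing while the founding mothers go on. All groups carried the program, a Tom70-GFP and an Rpl13a-mCherry fusion. Mother cells were labelled with biotin at the outset and recovered on streptavidin beads at 24 h, 48 h or 72 h, whereas log phase cells were harvested from growing cultures without estradiol. Age, estradiol, labelling and purification therefore changed together between log phase and the later times and cannot be told apart. Acetate, glucose, raffinose, galactose, fructose and sucrose were each at 2%. Estradiol was added to the ageing cultures after 4 h on acetate, 3 h on galactose and sucrose, and 2 h on glucose and fructose. The times for raffinose and for raffinose with galactose are not given. These differences go with the medium and cannot be told apart from it. Division is slower on acetate, and the 72 h acetate cells were paired in the study with 48 h glucose cells. The 72 h acetate and 72 h glucose samples are therefore matched in time but not in the number of divisions. Each acetate age was 1 sample. No difference below has a replicate check, no test was made, and "rose" or "fell" means a difference of 2-fold or more between single libraries.

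Acetate cannot be fermented. Cells take it up through the plasma membrane, activate it to acetyl-CoA and burn it in the tricarboxylic acid (TCA) cycle of the mitochondria, and they need the glyoxylate cycle, a bypass of the decarboxylating TCA steps, together with gluconeogenesis to build sugars from it. In yeast the genes of these steps are repressed by glucose and are switched on, once glucose is gone, by the Snf1 kinase and the zinc cluster activators Cat8 and Sip4 acting at the carbon source responsive element (CSRE), with Adr1 and the Hap2/3/4/5 complex acting on alcohol oxidation, peroxisomal and respiratory genes. Acetate as the sole carbon source is also the classical condition in which starved diploid yeast enter meiosis and form spores.

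The acetate libraries held 6285350 (log), 4640860 (48 h) and 3128044 (72 h) reads in nuclear genes, and the glucose 72 h library held 2901884. The 35 other wild type libraries held 2901884 to 14493179, so the acetate 72 h sample was among the shallowest. Of 6664 nuclear genes, 5695 had a mean of at least 16 normalised read counts over the 3 acetate samples and the glucose 72 h sample and were compared. As a yardstick, 0.123 to 9.04% of genes (median 0.720%) lay 2-fold or more apart within the 27 pairs of replicates of the other wild type groups, with 0.123 to 1.55% in the 20 pairs of aged samples and 1.26 to 9.04% in the 7 pairs of log phase samples, and the pooled replicate standard deviation (SD) of a gene was 0.146 at the median and 0.325 at the 90th percentile on the log2 scale. The 2 mother enrichment targets were read beside this and did not move alike. UBC9 stood at 535 normalised counts in log phase, 215 at 48 h and 157 at 72 h on acetate, against 451 to 552 in glucose log phase and 55.5 at glucose 72 h. CDC20 stood at 1915, 1293 and 1390 on acetate, and on glucose it did not fall by 72 h (0.16 on the log2 scale). The difference of acetate from glucose at 72 h was -0.42 for CDC20 and 1.50 for UBC9. Genes listed as daughter-specific, which may mark unlabelled daughters carried into a purified sample, summed to 42675 normalised counts in acetate log phase, 23437 at 48 h and 22908 at 72 h, against 17036 at glucose 72 h. UBC9 and the daughter-specific sum were thus both higher in the aged acetate samples than in the aged glucose sample, and their part in the comparisons of aged cells was not tested.

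The first question was which genes set acetate apart at every age. For 312 genes, 5.48% of those compared, all 3 acetate samples lay above all 35 other wild type samples, and for 370 genes, 6.50%, all 3 lay below. The gap to the nearest other sample was 2-fold or more for 38 of the genes above and for 4 of those below. In log phase alone, 29.1% of genes were above and 28.3% below all 11 other log phase samples. The 10 genes furthest above were STL1, MLS1, ICL1, FBP1, ACS1, ADY2, YLR307C-A, PUT4, YAT1 and ARO10. They encode a glycerol transporter (STL1), both enzymes particular to the glyoxylate cycle (ICL1 and MLS1), the gluconeogenic fructose-1,6-bisphosphatase (FBP1), an acetyl-CoA synthetase (ACS1), an acetate transporter (ADY2, also called ATO1), a proline permease (PUT4), a carnitine acetyltransferase (YAT1) and a decarboxylase of amino acid breakdown (ARO10). STL1 read 26136, 7217 and 6145 normalised counts at acetate log, 48 h and 72 h, and only 2.25 to 4.17 in glucose log phase and 84.5 at glucose 72 h. PUT4 read 30461, 2559 and 3041, and 159 at glucose 72 h. Among the genes above, 216 of 312 were highest in log phase, a share that was not taken over all genes. From log phase to 72 h 53 of the 312 fell and 3 rose, where 3.74% of all genes fell and 8.22% rose.

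The 10 genes furthest below the other media were YLR413W, OPT1, RAS1, PIS1, GND1, HXT3, IMD4, NOP7, UTR2 and PUS7. They include an oligopeptide transporter (OPT1), a Ras GTPase (RAS1), phosphatidylinositol synthase (PIS1), 6-phosphogluconate dehydrogenase of the pentose phosphate pathway (GND1), a hexose transporter (HXT3), an enzyme of GTP synthesis (IMD4) and a ribosome assembly factor (NOP7). YLR413W read 205, 206 and 114 normalised counts on acetate and 2991 at glucose 72 h. OPT1 read 47.5, 58.7 and 63.6 on acetate and 584 at glucose 72 h. PIS1 was nearly flat on acetate, at 572, 641 and 568, and lay between 1301 and 1928 in every other wild type sample. Among the genes below, 242 of 370 were lowest in log phase, a share that was likewise not taken over all genes. From log phase to 72 h 11 of the 370 rose and none fell.

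**Figure D1:**
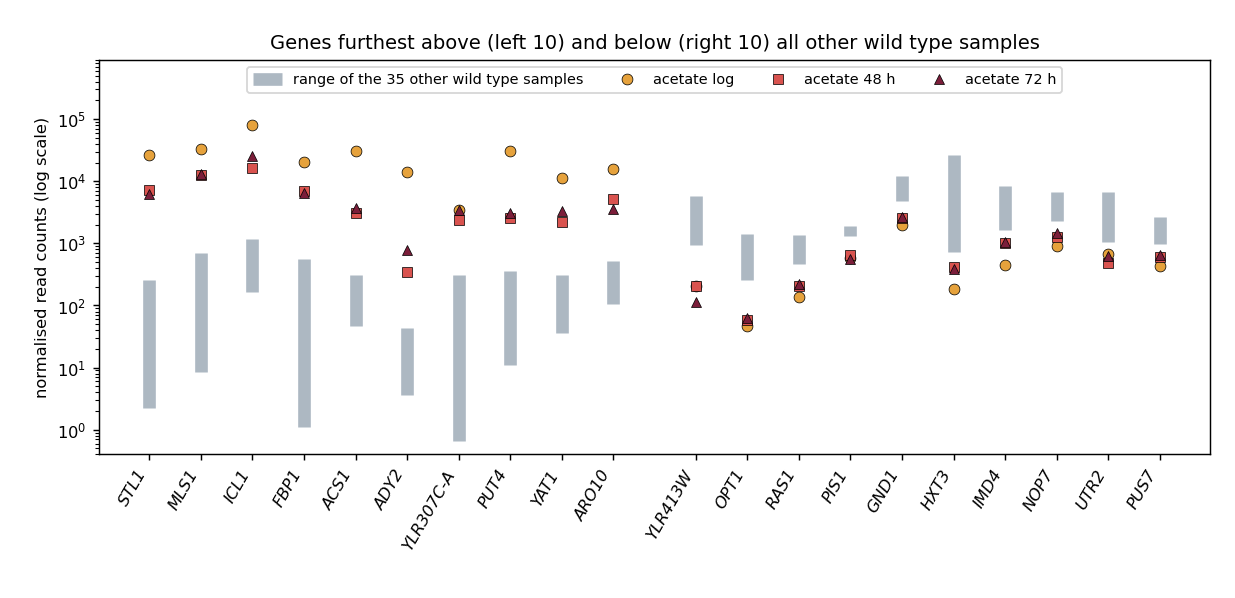
Normalised read counts (log scale) of the 10 genes furthest above and the 10 furthest below all other wild type samples. Each point is 1 acetate sample and each grey bar spans the lowest to the highest of the 35 other wild type samples. In the left 10 genes the log phase sample is the highest of the 3 and every point lies clear above the bar, and in the right 10 every point lies below it.

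Genes of acetate uptake and activation were high in log phase and much lower in aged cells, yet stayed far above glucose. Of 7 members, 6 were 2-fold or more higher in acetate log phase than in the mean of the 3 glucose log phase samples, where 17.1% of all genes were higher and 16.0% lower, and the median of the list was 8.07 on the log2 scale against 0.03 for all genes. None rose and 6 of 7 fell at 48 h (3.04% of all genes fell and 6.18% rose), with a median of -2.39, and 6 of 7 fell at 72 h (3.74% of all genes fell and 8.22% rose), with a median of -2.28. At 72 h, 5 of 7 were still higher on acetate than on glucose (6.95% of all genes were higher and 4.81% lower), with a median of 4.07.

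The acetate transporter gene ADY2 read 14021 normalised counts in log phase, 348 at 48 h and 784 at 72 h, against 3.69 to 11.2 in glucose log phase and 14.5 at glucose 72 h. It fell by 5.33 on the log2 scale from log phase to 48 h, with a 95% counting interval of -5.53 to -5.14, and its pooled replicate SD in other media was 0.41. Its rise of 1.17 from 48 h to 72 h (counting interval 0.93 to 1.42) left it 5.76 above glucose 72 h (4.62 to 7.21). ACS1, the acetyl-CoA synthetase used when glucose is absent, read 30455, 3066 and 3713, with 46.7 to 72.0 in glucose log phase and 162 at glucose 72 h. ACS2, the synthetase that glucose-grown cells depend on, read 7047, 4145 and 4440 on acetate and 2812 at glucose 72 h, and so moved less than 2-fold in all of these comparisons. The ammonium and acetate family gene ATO3 had the largest fall of all genes to 72 h, from 8531 to 546 and then 391, a change of -4.45 (-4.68 to -4.23), and ended at the glucose 72 h level of 410. Its relative ATO2 read 2773, 529 and 570 and was at 118 at glucose 72 h. JEN1, a carboxylic acid transporter, read 38090, 12356 and 10749, and the CoA transferase gene ACH1 read 27084, 10346 and 10149, against 410 and 606 at glucose 72 h.

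The genes of gluconeogenesis and the glyoxylate cycle followed the same course. Of 11, 9 were higher than glucose in log phase, 9 fell at 48 h, 8 fell at 72 h, none rose at either age, and 8 were still higher than glucose at 72 h. After quantile normalisation 5 in place of 8 fell at 72 h, with MLS1 at -0.78, FBP1 at -0.95 and IDP2 at -0.60, and in the uptake list ACH1 stood at -0.73. The medians of the list were 8.21, -1.50, -1.37 and 3.64 in these 4 comparisons, and the medians over all genes lay between -0.01 and 0.03. ICL1, encoding isocitrate lyase, read 79951 normalised counts in log phase, 16251 at 48 h and 25829 at 72 h, against 164 to 176 in glucose log phase and 403 at glucose 72 h. MLS1, encoding malate synthase, read 33479, 12389 and 12995, against 12.3 to 19.1 and 84.5, and its difference from glucose at 72 h, 7.27 (6.79 to 7.79), was the largest of any gene. Both genes of the bypass therefore fell with age and still lay outside the range of the other media.

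FBP1 read 20019, 6863 and 6532 on acetate, a few reads (1.11 to 3.37 normalised counts) in glucose log phase and 152 at glucose 72 h. PCK1, encoding phosphoenolpyruvate carboxykinase, read 52285, 20284 and 15961, and 623 at glucose 72 h. MDH2, the cytosolic malate dehydrogenase gene, read 49153, 15203 and 14558, against 3437. The succinate-fumarate carrier gene SFC1 read 17585, 4209 and 5083, against 70.0, and the cytosolic isocitrate dehydrogenase gene IDP2 read 21267, 9760 and 9330, against 751. The pyruvate carboxylase genes, which refill the TCA cycle from pyruvate, behaved apart from the rest. PYC1 fell to 3958 from 16100 and came back to 12234 at 72 h, a rise of 1.63 (1.56 to 1.70) between the aged samples, and its raffinose log phase level was 17106. PYC2 stayed between 3873 and 4707.

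Because these genes are the known targets of Cat8 and Sip4, the 500 bases upstream of each start codon were searched for the core of the CSRE, spelled CC and CCG with any 6 bases between them, on both strands. It was present in 20.7% of 5566 windows of all compared genes, in 8 of 11 windows of the gluconeogenesis and glyoxylate list, in 3 of 7 of the uptake list, in 5 of 5 of the carnitine list and in 7 of the 10 genes furthest above the other media, against 5 of the 10 furthest below and 33.6% of the 137 cytosolic ribosomal protein genes. Of the 307 windows of all genes above the other media 37.5% held it, and of the 369 windows of genes below 21.4% held it. A match shows only that the letters occur in the window. The stretches around the match nearest the start codon are printed for 7 genes of these lists, read 5′ to 3′ on the gene's strand from the R64 reference of RefSeq, with the matched letters in capitals. They lie, for ICL1 at chrV:287262-287352 (- strand), MLS1 at chrXIV:405877-405967 (+ strand), FBP1 at chrXII:875174-875264 (- strand), PCK1 at chrXI:630750-630840 (+ strand), ACS1 at chrI:45193-45283 (- strand), ADY2 at chrIII:133407-133497 (- strand), CAT2 at chrXIII:192467-192557 (+ strand).
ICL1: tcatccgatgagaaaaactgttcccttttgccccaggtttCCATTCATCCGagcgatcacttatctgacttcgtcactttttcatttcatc
MLS1: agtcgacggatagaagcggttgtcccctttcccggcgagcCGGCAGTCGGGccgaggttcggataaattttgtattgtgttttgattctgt
FBP1: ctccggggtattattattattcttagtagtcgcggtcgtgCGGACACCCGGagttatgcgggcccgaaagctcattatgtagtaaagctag
PCK1: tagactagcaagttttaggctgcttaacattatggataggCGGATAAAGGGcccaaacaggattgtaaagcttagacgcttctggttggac
ACS1: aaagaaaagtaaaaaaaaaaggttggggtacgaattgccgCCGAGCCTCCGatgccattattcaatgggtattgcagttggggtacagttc
ADY2: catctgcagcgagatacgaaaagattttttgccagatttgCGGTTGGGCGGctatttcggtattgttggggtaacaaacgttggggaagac
CAT2: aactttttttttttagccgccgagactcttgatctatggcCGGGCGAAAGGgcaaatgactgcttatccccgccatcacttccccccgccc
All 7 were above the range of the other media at every age.

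The carnitine shuttle, which carries acetyl groups between peroxisome, cytosol and mitochondrion, gave the same picture over all 5 of its genes. All 5 were higher than glucose in log phase (median 6.91), 4 fell at 48 h (median -2.27) and at 72 h (median -1.79), and all 5 were higher than glucose at 72 h (median 2.97). The carnitine acetyltransferase genes CAT2, YAT1 and YAT2 read 9206, 11316 and 16917 in log phase and 2366, 3275 and 4188 at 72 h, and 391, 210 and 533 at glucose 72 h. CRC1, the mitochondrial carnitine carrier gene, read 2567, 532 and 750, against 79.7. AGP2, which encodes a plasma membrane carnitine carrier, read 2146, 1162 and 1122, against 302, and was the member that moved less than 2-fold with age.

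Genes of peroxisomal fatty acid oxidation (12 of 16 higher than glucose in log phase, median 2.70) fell for 8 of 16 members at both 48 h and 72 h and rose for none. The peroxisomal catalase gene CTA1 had the second largest fall at 48 h, from 4522 to 162 normalised counts, and read 250 at 72 h against 86.9 at glucose 72 h. POX1, the first enzyme of beta-oxidation, read 1820, 321 and 304, against 128. In the glycogen and trehalose list, 14 of 16 genes were higher than glucose in log phase (median 2.90), 2 fell at 48 h, and 8 fell at 72 h (median -1.06). PGM2, encoding phosphoglucomutase, read 12723, 4344 and 2564, and the glycogen phosphorylase gene GPH1 fell by 1.69 (-1.79 to -1.60) over the 72 h. On glucose, 10 of these 16 genes rose from log phase to 72 h, where 15.6% of all genes rose and 5.37% fell. On raffinose, as on acetate, none rose, and 7 of 16 fell by 48 h (median -0.84), where 9.29% of all genes rose and 7.41% fell.

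The TCA cycle and the respiratory chain differed from the lists above in that they hardly moved with age. Of 18 TCA cycle genes, 16 were higher in acetate than in glucose log phase (median 3.16), none rose and 2 fell from log phase to 72 h (median -0.50), and 14 were higher than glucose at 72 h (median 2.19). CIT1, the mitochondrial citrate synthase gene, read 29697, 21967 and 19043 on acetate and 2568 at glucose 72 h, and the aconitase gene ACO1 read 41463, 36054 and 30587, against 6701. The 2 genes that fell at 72 h were CIT3, a minor citrate synthase gene, which fell by 1.09 (-1.32 to -0.87), and LSC1, a succinyl-CoA ligase subunit gene, at 7786, 4420 and 3888. With scaling to total reads both stayed under 2-fold, at -0.87 and -0.78.

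Of 38 respiratory chain and ATP synthase genes, 37 were higher than glucose in log phase (median 2.89) and 36 at 72 h (median 1.91), while 1 rose and 1 fell with age (median -0.21). SDH1, of complex II, which was counted in the TCA cycle list and not among these 38, read 20224, 15727 and 14360, and 1419 at glucose 72 h. The exception in direction was COX5B, the form of cytochrome oxidase subunit V made when oxygen is low, which read 147, 202 and 99.9 on acetate and 512 at glucose 72 h and lay below all other wild type samples. The member that rose was CYC7, the hypoxic cytochrome c isoform, at 122, 325 and 332, and the one that fell was NDE2, a mitochondrial NADH dehydrogenase gene, at 4836, 1083 and 1374. The CCAAT box bound by the Hap complex occurred in 34 of the 38 upstream windows and in 62.7% of all windows.

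Among 20 regulators of non-fermentative growth, 6 were higher (10 with scaling to total reads) and 2 lower than glucose in log phase, and 4 rose (2 after quantile normalisation) and 1 fell to 72 h. HAP4, the activating subunit of the Hap complex, was flat on acetate at 4654, 4942 and 4701 normalised counts and read 1110 at glucose 72 h. CAT8 read 1995, 1420 and 1342, against 323. SIP4 was the member that fell, from 2097 to 555 and 793, a change of -1.40 (-1.58 to -1.24) by 72 h, and stood 2.66 (2.24 to 3.11) above glucose 72 h. MIG2, encoding a glucose repressor that is made when glucose is present, rose from 1 read in log phase by 5.74 (3.15 to 11.09) but stayed 3.13 lower than at glucose 72 h (-3.72 to -2.59). The values of MIG2 at the low end rest on very few reads.

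Raffinose samples from the same lane showed which of these differences held against another slowly used carbon source. Between acetate and raffinose log phase, 5.99% of genes were 2-fold or more higher and 5.86% lower, and the uptake list was higher for 7 of 7 genes (median 2.94), the gluconeogenesis and glyoxylate list for 8 of 11 (median 5.45) and the carnitine list for 5 of 5 (median 4.91). In the same comparison only 3 of 18 TCA cycle genes and 1 of 38 respiratory chain genes were higher. At 48 h 3.39% of genes were higher and 2.23% lower on acetate than on raffinose, 5.62% in all, with 6 of 7 uptake genes (median 2.41), 5 of 5 carnitine genes (median 2.05) and 9 of 18 TCA cycle genes (median 1.04) higher. With age on raffinose, 9.29% of genes rose and 7.41% fell by 48 h. There 6 of 11 gluconeogenesis and glyoxylate genes rose and 1 fell (median 1.29), against 0 and 9 on acetate at 48 h.

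The hexose transporter genes were split. Of 12 that passed the filter on low values, of 19 in the list, 6 were higher and 4 lower than glucose in log phase, and 2 were higher and 4 lower than glucose at 72 h. With age on acetate 7 rose and 1 fell at 48 h, and 6 rose at 72 h. The low affinity transporter gene HXT3 read 184, 420 and 391 normalised counts against 17188 at glucose 72 h, a difference of -5.46 (-5.69 to -5.24) that was the largest below glucose of any gene. HXT1, the other low affinity transporter, read 10.6, 35.5 and 50.0, against 1735. HXT2, a high affinity transporter, went from 35.7 through 385 to 1869 and so came close to its glucose 72 h level of 2209. HXT5, a transporter of slowly growing cells, was the member above all other wild type samples. It was 4.38 (4.19 to 4.58) higher than glucose at 72 h and changed by -0.40 from log phase to 72 h.

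Of 30 glycolytic and fermentative genes, 10 were higher and 11 lower (6 after quantile normalisation) than glucose in log phase, and 2 rose and 6 fell from log phase to 72 h (median -0.55). Enolase (ENO2) and pyruvate kinase (CDC19) read 28916 and 26767 in acetate log phase, and 167573 to 204898 and 103839 to 108437 in glucose log phase. By 72 h none of the 30 was 2-fold lower than glucose 72 h, and 6 were higher. The largest fall was that of ADH2, the alcohol dehydrogenase that turns ethanol to acetaldehyde, from 60416 to 2310 and 4917, with 89.3 at glucose 72 h. ALD4, the main mitochondrial acetaldehyde dehydrogenase, read 49140, 8923 and 11401, and 2368 at glucose 72 h. PDC6, a minor pyruvate decarboxylase gene, rose from 46.2 to 215 and 363.

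Cytosolic ribosomal protein genes were lower on acetate than on glucose in log phase and did not pass 2-fold with age. Of 137, 133 were lower in acetate than in glucose log phase (median -2.01), and 80 lay below all other wild type samples at all 3 ages. They took 5.94% of nuclear counts in log phase, 7.10% at 48 h and 6.73% at 72 h, against 19.2 to 21.0% in glucose log phase, 9.70 to 11.9% at glucose 48 h and 12.2% at glucose 72 h. On raffinose they took 12.0% in log phase and 7.73% at 48 h. At 48 h none of the 137 was 2-fold apart between acetate and raffinose (median -0.09), and 4 were lower at acetate 72 h than at glucose 48 h. From log phase to 72 h none of the 137 rose or fell (median -0.03), whereas on glucose 111 fell (median -1.22). RPS22A read 2149, 2273 and 2217 on acetate and 5115 at glucose 72 h, and RPL9A read 2543, 2366 and 1930, against 5035. Reads of duplicated ribosomal protein genes may be split between near-identical copies, so single members are less certain than the sum. At 72 h, 20 of the 137 were lower on acetate than on glucose (52 after quantile normalisation). Of 50 ribosome biogenesis factors 17 were lower (27 after quantile normalisation).

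The ribosome biogenesis factors were as low in log phase (49 of 50 lower than glucose, median -2.31) but came up with age. At 48 h 6 rose (median 0.65) and at 72 h 13 of 50 rose and none fell (median 0.79), against 0 of 50 in either direction on glucose (median -0.56). On raffinose 5 of 50 rose and none fell by 48 h (median 0.49), where 9.29% of all genes rose, so the rise at 48 h was not particular to acetate. NSR1, encoding a nucleolin-like protein, read 625, 1661 and 2455 normalised counts, a rise of 1.97 (1.82 to 2.13) by 72 h, and 6008 at glucose 72 h. NOP8, a factor of the large subunit, rose by 1.66 (1.29 to 2.04). RPA190, the largest subunit of RNA polymerase I, read 1272, 1881 and 1640, below the 3640 of glucose 72 h. Scaling to total nuclear reads, which moves the median of all genes by 0.22 in this comparison, gave 27 risen genes in place of 13. The 70 mitochondrial ribosomal protein genes neither rose nor fell with age on acetate at either time.

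**Figure D2:**
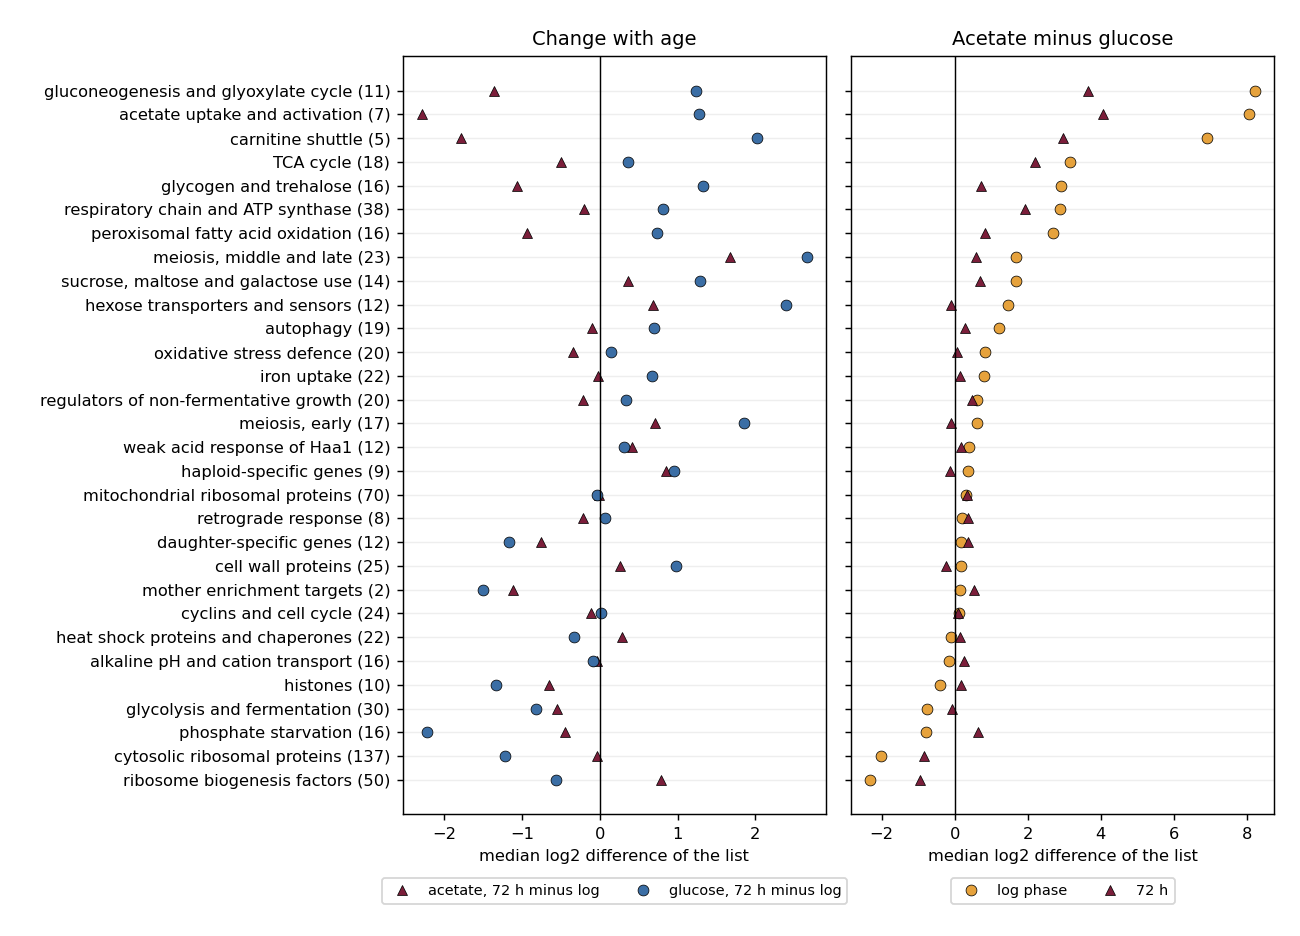
Median log2 difference of each gene list, with the number of members that passed the filter in brackets, for the change from log phase to 72 h on acetate and on glucose (left) and for acetate minus glucose in log phase and at 72 h (right). The 3 lists at the top lie between -2.28 and -1.37 with age on acetate and above 1.2 on glucose, and their distance to glucose is smaller at 72 h than in log phase.

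The second question was how acetate cells changed with age. At 48 h 352 genes had risen and 173 had fallen, 9.22% of those compared, and at 72 h 468 had risen and 213 had fallen, 12.0%. The split depends on the scaling: scaling to total nuclear reads gave 491 risen and 116 fallen genes at 48 h and 674 and 131 at 72 h, and quantile normalisation 280 and 220 at 48 h and 371 and 297 at 72 h. Between 48 h and 72 h 73 genes rose and 43 fell, 2.04%, which is more than the 0.123 to 1.55% within pairs of aged replicates in other media and within the 1.26 to 9.04% of log phase pairs. On glucose 887 genes rose and 306 fell by 72 h, 20.9%, and on raffinose 529 rose and 422 fell by 48 h, 16.7%. The glucose counts compare 1 aged sample with log phase samples of other lanes, so there lane and age cannot be told apart.

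**Figure D3:**
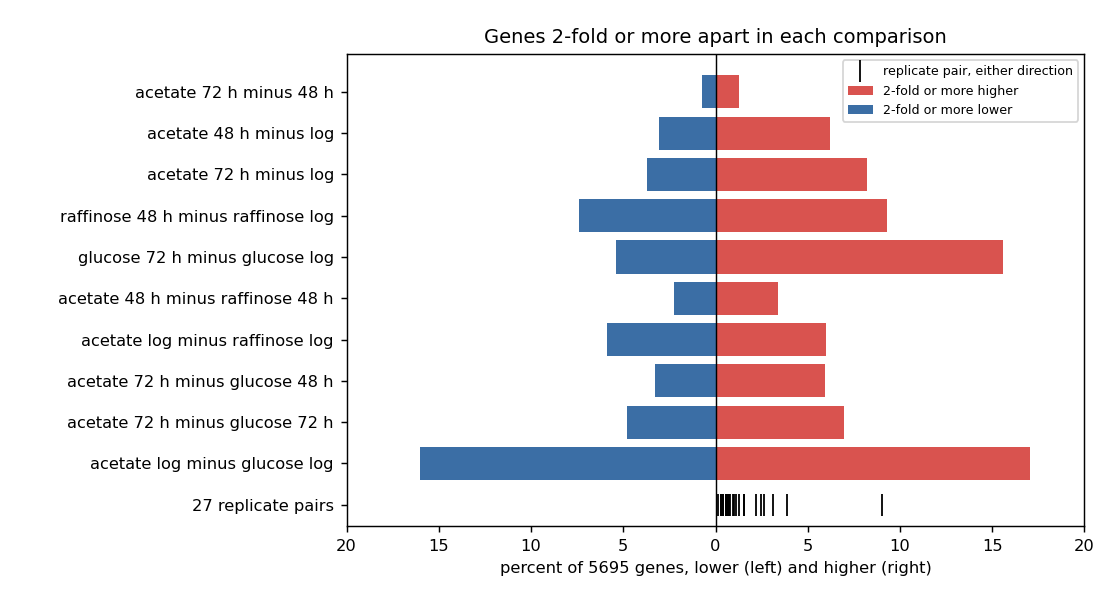
Percentage of the 5695 compared genes that lay 2-fold or more lower (left, blue) or higher (right, red) in each comparison, with ticks for the percentage in either direction between 2 replicates of one group in the 27 replicate pairs. The ageing changes on acetate, 9.22% and 12.0%, are smaller than the 33.1% between acetate and glucose in log phase, and the 72 h and 48 h acetate samples differ by 2.04%.

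The largest rises with age on acetate included genes of spore formation. Of the 6 genes that rose most by 72 h in the same direction at both ages, SPS2 and its relative SPS22 encode spore wall proteins, CDA2 encodes a chitin deacetylase of the spore wall, and YGL138C, YAL018C and YNR014W are given by name only. SPS2 had 1 read in log phase and read 263 and 407 normalised counts at 48 h and 72 h, and 109 at glucose 72 h. Its rise by 72 h was 8.27 with a counting interval of 5.77 to 13.58. SPS22 and YGL138C had 0 reads in log phase and read 209 and 248 at 72 h, at least 52.7-fold and 62.5-fold higher than a floor of 3 reads in the log phase library. CDA2 rose from 3 reads (3.96 normalised counts) to 280 and 341, with 43.4 at glucose 72 h. Counts can be shared between SPS2 and SPS22 where their sequences are alike.

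Over the list of middle and late meiotic genes, 23 of 24 members passed the filter, 12 rose at 48 h and 16 at 72 h, and none fell (median 1.67 at 72 h). On glucose 21 of the 23 rose by 72 h (median 2.66). On raffinose 20 rose and 1 fell by 48 h (median 2.04), against a median of 1.13 on acetate at 48 h, so the rise was not particular to acetate. Their summed level was 5755 normalised counts in acetate log phase, 9603 at 48 h and 12271 at 72 h, against 1328 to 1525 in glucose log phase and 7570 at glucose 72 h. SMK1, the sporulation MAP kinase gene, read 6.60, 49.5 and 136, and SPR3, a sporulation-specific septin gene, rose by 2.04 (1.69 to 2.40). SPO77, which had 0 reads in log phase, read 59.0 at 72 h, at least 14.9-fold higher, and lies above the median of the list at that bound too. NDT80, the transcription factor that turns on middle meiotic genes in sporulation, did not rise: it read 55.5, 66.4 and 34.1 on acetate and 45.9 at glucose 72 h. IME1, the inducer of meiosis, read 165, 147 and 191. Of 17 early meiotic genes that passed the filter, of 24, 5 rose at 48 h and 5 at 72 h (median 0.71), and 1 of the 17 rose at 72 h after quantile normalisation. On glucose 13 of the 17 rose by 72 h (median 1.86), and on raffinose 11 rose by 48 h (median 1.27), so this rise was not particular to acetate either. The axis protein gene HOP1 read 26.4, 74.2 and 97.7, and its rise was 0.99 after quantile normalisation.

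Ndt80 binds the middle sporulation element (MSE), and the 500-base windows were searched for its core GNCACAAA on both strands. This search was added after the gene values had been seen. The core occurred in 14 of the 23 windows of middle and late meiotic genes, in 0 of 17 of the early genes and in 6.97% of all windows. The stretches around the match are shown for 7 genes described above, capitals marking the matched letters or their reverse complement, on the gene's strand of the R64 reference: SPS2 at chrIV:1485304-1485373 (- strand), SMK1 at chrXVI:666161-666248 (+ strand), SPR3 at chrVII:607233-607320 (+ strand), SPO77 at chrXII:807193-807280 (+ strand), CDA2 at chrXII:747731-747818 (+ strand), SPS22 at chrIII:42024-42111 (+ strand), YGL138C at chrVII:249634-249721 (- strand).
SPS2: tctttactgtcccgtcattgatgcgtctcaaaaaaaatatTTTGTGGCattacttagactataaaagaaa
SMK1: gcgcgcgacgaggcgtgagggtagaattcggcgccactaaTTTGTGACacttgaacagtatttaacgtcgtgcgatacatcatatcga
SPR3: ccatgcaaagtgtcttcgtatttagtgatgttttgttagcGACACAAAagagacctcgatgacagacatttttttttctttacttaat
SPO77: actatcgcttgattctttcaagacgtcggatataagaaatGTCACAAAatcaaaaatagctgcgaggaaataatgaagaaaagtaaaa
CDA2: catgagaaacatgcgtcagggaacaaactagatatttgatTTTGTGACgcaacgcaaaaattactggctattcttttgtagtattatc
SPS22: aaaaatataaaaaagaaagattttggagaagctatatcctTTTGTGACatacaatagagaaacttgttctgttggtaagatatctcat
YGL138C: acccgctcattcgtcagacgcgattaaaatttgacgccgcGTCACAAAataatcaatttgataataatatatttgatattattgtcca
The stretches of SPS2, SMK1, SPR3, SPO77 and CDA2 are of list members, and those of SPS22 and YGL138C of genes named for the size of their rise.

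PIR3, a cell wall protein gene, rose from 398 normalised counts to 13723 and 13458, with 7251 at glucose 72 h, and NCA3 rose from 289 to 4732 and 5630, with 3220. AQR1, a transporter of the major facilitator family that exports acids and amino acids, read 11.9, 332 and 731 on acetate and 2049 at glucose 72 h. In the list of 25 cell wall genes 7 rose and 4 fell at 48 h, and 6 rose and 4 fell at 72 h. SPI1 and CWP1 were among those that fell, from 454 to 168 and 111 and from 15095 to 7393 and 3743.

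**Figure D4:**
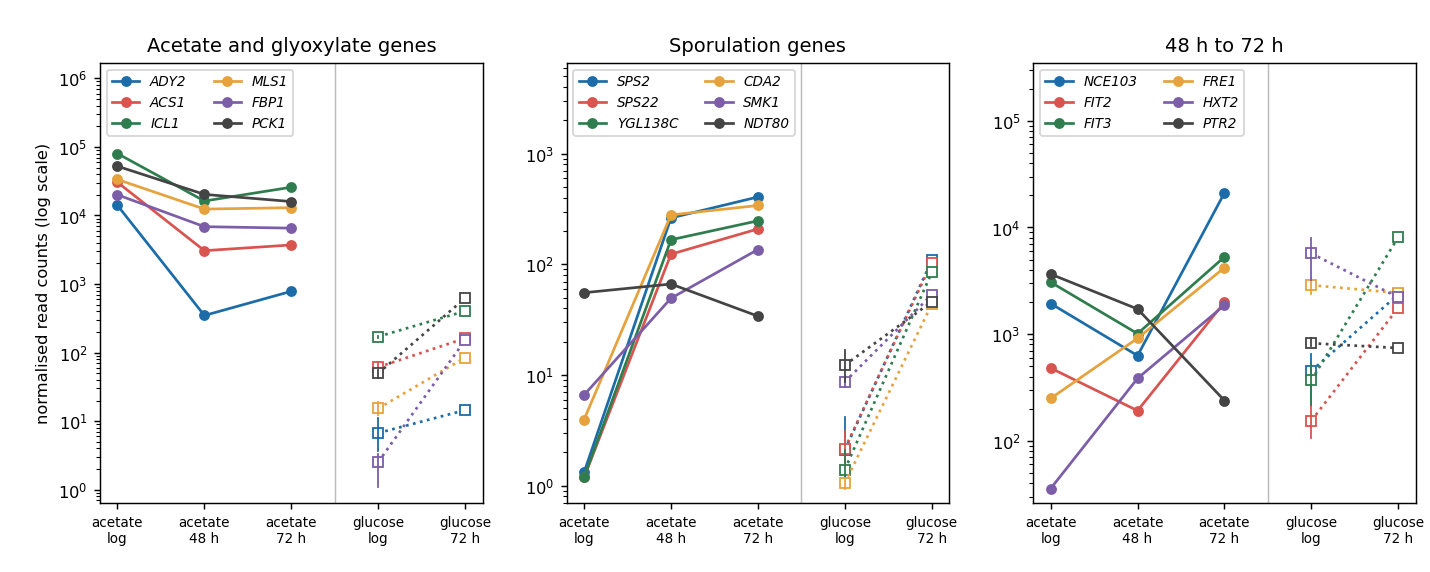
Normalised read counts (log scale) of 3 groups of genes at acetate log, 48 h and 72 h (filled circles, 1 sample each) and in glucose log phase and at glucose 72 h (open squares; glucose log is the mean of 3 samples with bars from the lowest to the highest, glucose 72 h is 1 sample). Acetate and glyoxylate genes go down from log phase and stay above glucose, the sporulation genes other than NDT80 go up from between 0 and 5 reads, and NCE103, FIT2, FIT3, FRE1 and HXT2 are higher at 72 h than at 48 h. Genes with 0 reads are drawn at 0.9 of 1 read.

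Some genes differed 2-fold or more between 48 h and 72 h. NCE103, encoding carbonic anhydrase, read 1936 normalised counts in log phase, 629 at 48 h and 21128 at 72 h, a rise of 5.07 (4.93 to 5.22) between the aged samples, and no other wild type sample was above 3790. Its pooled replicate SD in other media was 0.73. The iron uptake genes moved down and then up. Of 22, 2 rose and 9 fell from log phase to 48 h (median -0.54), 9 rose and none fell from 48 h to 72 h (1.28% of all genes rose and 0.755% fell in this comparison), and by 72 h 6 stood above and 1 below their log phase level. Their summed level was 37731 in log phase, 18182 at 48 h and 39344 at 72 h. FIT2 and FIT3, which encode cell wall mannoproteins that hold iron-bearing siderophores, read 481, 192 and 1992 and 3070, 1011 and 5298, and stood at 1769 and 8144 at glucose 72 h. The ferric reductase gene FRE1 rose throughout, from 250 to 915 and 4204, with 2433 at glucose 72 h. The dipeptide transporter gene PTR2 moved the other way, at 3653, 1720 and 239, and had the largest fall between the aged samples, by 2.85 (-3.15 to -2.56), with 741 at glucose 72 h. Whether these differences are a property of 72 h on acetate or of that culture cannot be told from 1 sample.

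The third question was whether ageing changed the same genes on acetate and on glucose. Of the 468 genes that rose on acetate by 72 h, 265 also rose on glucose by 72 h, which is 56.6% of the acetate genes and 29.9% of the 887 glucose genes, where 15.6% of all compared genes rose on glucose. Of the 213 that fell on acetate, 26 also fell on glucose, 12.2% of the acetate and 8.50% of the 306 glucose genes, where 5.37% of all compared genes fell on glucose. A further 84 genes fell on acetate and rose on glucose, and 5 rose on acetate and fell on glucose. The 84 genes had a median change of -1.68 on acetate and 2.06 on glucose. They lay 5.55 above glucose in log phase and 1.54 at 72 h in the median. That drop follows from how they were picked, by a fall on acetate and a rise on glucose between these samples. On raffinose their median was -0.37 at 48 h, with 17 rising and 32 falling. FBP1, JEN1, ADY2, PUT4 and ADH2 were among them. FBP1 fell from 20019 to 6532 on acetate, and on glucose it read 1.11 to 3.37 in log phase and 152 at 72 h, so its level on acetate stayed the higher. HXT2 was among the 5 opposite genes, rising from 35.7 to 1869 on acetate, while on glucose it read 3250 to 7980 in log phase and 2209 at 72 h. GPX2, a glutathione peroxidase gene, rose by 1.91 (1.43 to 2.42) on acetate and was also among the 5.

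**Figure D5:**
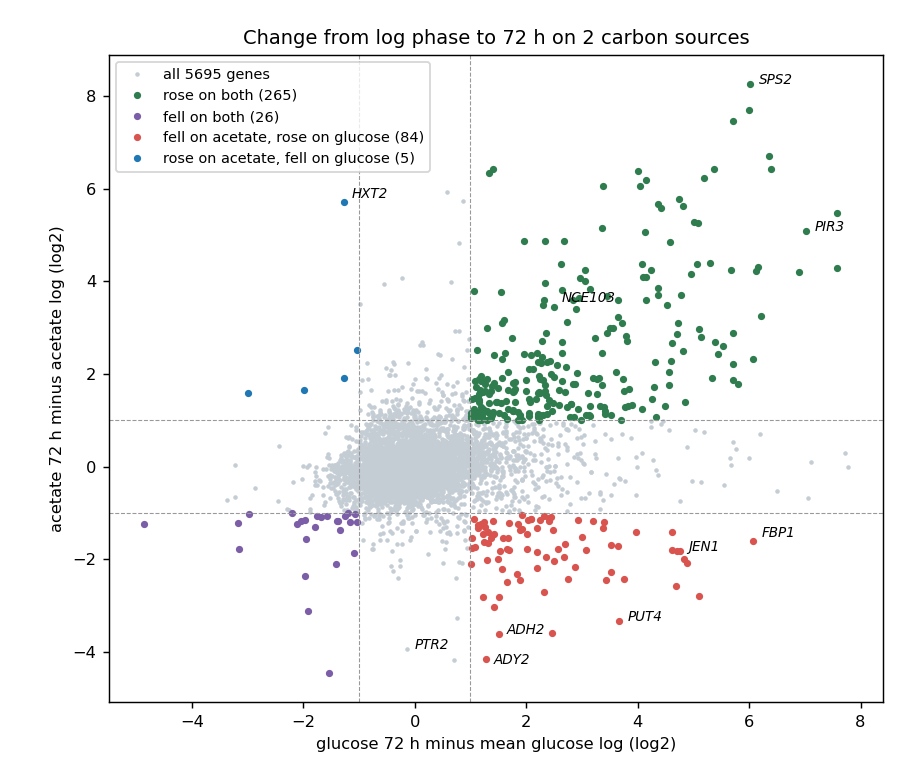
Change from log phase to 72 h (log2) on acetate (vertical) against glucose (horizontal) for 5695 genes, with dashed lines at 2-fold. Of the coloured genes 265 rose on both, 26 fell on both, 84 fell on acetate and rose on glucose, and 5 rose on acetate and fell on glucose.

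The distance between the media was smaller at 72 h than in log phase. In log phase 972 genes were higher and 912 lower on acetate than on glucose, 33.1% of those compared (1239 and 732 with scaling to total reads), and at 72 h 396 were higher and 274 lower, 11.8%. Of the 972 genes, 323 (33.2%) were still 2-fold higher at 72 h and 19 were 2-fold lower, and their median went from 1.95 to 0.67. Of the 912 genes, 180 (19.7%) were still lower and 11 were higher, with a median of -1.75 in log phase and -0.73 at 72 h. Both sets were picked by their log phase difference, so part of the drop in their medians may follow from how they were picked. The counts over all compared genes do not rest on such a choice. The log phase comparison crosses lanes, and there lane and medium cannot be told apart, whereas both 72 h samples came from one lane. Against the 4 glucose 48 h samples, the age that the study pairs with 72 h on acetate, 337 genes were higher and 187 lower, 9.20% in all, 5.92% and 3.28% (290 and 271 with scaling to total reads).

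Beside the acetate genes, the phosphate regulon differed between the aged acetate and glucose samples. Of 16 genes, 13 fell and 1 rose on glucose by 72 h (median -2.22), and 4 fell (2 with scaling to total reads) and 2 rose on acetate (median -0.45). In log phase 2 were higher and 6 lower on acetate than on glucose, and at 72 h 7 were higher and 1 lower. Against raffinose, 11 were lower on acetate in log phase and none higher (median -1.34), and at 48 h 3 were higher and 1 lower. On raffinose 11 of the 16 fell and none rose by 48 h (median -2.35). PHO89, a sodium-phosphate cotransporter gene, read 12349, 7150 and 12591 on acetate and 244 at glucose 72 h, a difference of 5.69 (5.41 to 5.99), with a pooled replicate SD of 0.70. PHO84, the main phosphate transporter, was 1.91 (1.84 to 1.98) higher. Lower on acetate than on glucose at 72 h, after the hexose transporters, were YHK8, YLR413W, ANB1, PGU1 and TIR1. ANB1, a translation factor gene of hypoxic cells, and TIR1, a cell wall gene of cold and anoxic cells, differed by -4.18 (-5.83 to -2.90) and -3.52 (-4.20 to -2.90).

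The other lists are given by their counts at 72 h against log phase, where 8.22% of all genes rose and 3.74% fell (5.37% fell on glucose by 72 h and 7.41% on raffinose by 48 h). Of 24 cyclin and cell cycle genes none passed 2-fold at 48 h and 1 fell at 72 h, and of 19 autophagy genes none did at either age, although 12 of the 19 were higher than glucose in log phase (median 1.21). Of 10 histone genes 3 fell by 72 h (median -0.65, 1 with scaling to total reads), against 8 on glucose (median -1.33) and 10 on raffinose at 48 h (median -1.85). Of 12 daughter-specific genes 5 fell (median -0.76, 2 with scaling to total reads and 3 after quantile normalisation), against 8 on glucose and 9 on raffinose. Of 22 heat shock and chaperone genes 2 rose and none fell by 72 h, of 20 oxidative stress genes 2 rose and 2 fell, and of 16 genes of alkaline pH and cation transport 2 rose and none fell. Of 12 genes of the Haa1 regulon, which responds to acetic acid, 3 rose and 1 fell, and 3 were higher and 3 lower than glucose in log phase. GRE1, a hydrophilin gene of this list, read 435, 558 and 1081 and lay above all other wild type samples. Of 8 retrograde response genes 3 fell, among them CIT2, the peroxisomal citrate synthase gene, at 21403, 4200 and 5067. Of 9 haploid-specific genes that passed the filter 2 rose and none fell, and of 14 genes of sucrose, maltose and galactose use 1 rose and 1 fell.

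The study also used the slope of the log2 change against mean expression as a measure of a skewed profile, in which weakly expressed genes rise and strongly expressed genes fall with age. The slope was -0.0628 at 48 h and -0.0870 at 72 h on acetate over 5846 genes, against -0.221 at glucose 72 h and -0.0992 at raffinose 48 h. Of the 1461 genes lowest in expression on acetate 18.9% rose by 72 h, and of the 1446 lowest on glucose 37.8% rose. Of as many genes highest in expression 3.29% and 3.87% rose. After quantile normalisation the acetate slopes were 0.0550 and 0.0589. The study used that scaling to take out the skew that the slope measures, so these values cannot check the sign. Genes of chromosome XII between the ribosomal DNA and the right telomere (ChrXIIr), a region that the study followed in every medium, had a median change 0.15 above that of the other chromosomes at 48 h and 0.24 at 72 h on acetate. These differences rest on 282 genes and compare with 0.57 at glucose 72 h and 0.19 at raffinose 48 h. Of the 282 genes 70.9% were above 0 at acetate 72 h, against 48.5% of genes on the other chromosomes. The share above 0 in ChrXIIr was 76.6% at glucose 72 h and 62.2% at raffinose 48 h, against 48.8% and 48.2% on the other chromosomes.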

How the data were processed

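Poly(A) RNA was sequenced as stranded, single-end libraries. The authors trimmed the reads with Trim Galore 0.6.6, mapped them with HISAT2 2.1.0 to the R64-1-1 genome, counted them over genes in SeqMonk and deposited log2 counts normalised by a size factor per sample. These deposited log2 values stand for whole reads, with 0 reads written as 0.9 of 1 read: 100% of the values fell within 0.01 reads of a whole number, and the recovered reads gave the depths and the counting intervals (95%, exact conditional binomial), which cover counting error only. The 3 other deposited tables were not used here.

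From the main table of 59 samples, the 28 mitochondrially encoded genes were set aside and genes were kept at a mean of 16 or more normalised counts over the acetate and glucose 72 h samples. Differences are of log2 values, called at 2-fold. Each acetate age is 1 sample, and no test was made. Slopes and ChrXIIr medians used genes with at least 4 normalised counts in log phase. Members and all 30 gene lists were chosen with earlier results of these data known. Genes were named if they belonged to the uptake, gluconeogenesis, carnitine or mother enrichment lists, were among the 6 largest rises or falls of a comparison or the 10 furthest from other media, or were among the 2 largest rises or falls of another list; other single genes were chosen after their values were seen. Upstream windows came from RefSeq R64, in which 5988 gene identifiers were found, 5980 at the coordinates of the table. The calling rule was tested on simulated data. Python 3.11.15, numpy 2.4.6, pandas 2.3.3 and scipy 1.17.1 were used. Alternatives were scaling to total nuclear reads, quantile normalisation, other filters and left-out replicates of the glucose groups.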

Additional observations from a re-analysis of the deposited data

Results flagged for a closer look

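Some genes changed in opposite directions with age on the 2 carbon sources. At both 48 h and 72 h on acetate 55 of the 5695 compared genes were 2-fold or more lower than in acetate log phase while the glucose 72 h sample was 2-fold or more higher than each glucose log phase sample, and 2 genes showed the reverse. Both acetate ages were set against the same single log phase sample, so the 2 ages are not separate checks. The glucose change minus the acetate change (log2, 72 h minus log) was 7.88 for YNL194C, 7.68 for FBP1, 7.27 for POX1, 6.998 for PUT4, 6.98 for STL1 and 6.84 for PUT1, and it was -3.64 for YFL032W and -3.18 for GPX2, the 2 reverse genes. YNL194C, PUT1 and YFL032W were singled out for these values. On raffinose by 48 h, YNL194C, FBP1, POX1, PUT4, STL1 and PUT1 changed by 0.34, 0.51, -1.54, 2.93, 0.69 and 0.73. The glucose change crosses lanes, so there lane and age cannot be told apart. The difference between the media was not tested.

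Mitochondrially encoded transcripts, which poly(A) selection captures poorly, were left out of the comparisons. Their sum was 0.0101% of nuclear counts in acetate log phase and 0.0212% at both 48 h and 72 h. The other aged samples of the table had more at the same or a shorter time in several cases, such as 0.0356% at raffinose 48 h and 0.0235% at glucose 72 h.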

How the results depend on the processing

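Counts and values for the comparisons were recomputed under 96 alternatives. Of these, 72 stayed within 1.5 times the reported count or close to the reported value, 22 moved and 2 reversed. Without a filter on low values 542 genes rose at 48 h on acetate (352 reported), 194 rose and 137 fell between 48 h and 72 h, 512 were lower than glucose at 72 h, and 640 were higher and 339 lower than glucose 48 h. At a mean of at least 64 normalised counts 28 genes fell between 48 h and 72 h. Scaling to total nuclear reads gave 131 fallen genes at 72 h. Quantile normalisation gave 420 genes lower than glucose 72 h, 310 lower than glucose 48 h, and ChrXIIr differences of 0.20 at 48 h and 0.31 at 72 h. The 2 reversed values were the quantile slopes, 0.0550 and 0.0589, and that scaling takes out the skew that the slope measures. Slopes of -0.0855 at 48 h (at least 16 normalised counts) and -0.110 at 72 h (no filter) kept their sign. Without the raffinose and glucose 72 h samples, 521 genes lay above and 579 below all other samples. Alternatives added after seeing the data gave 341 higher and 334 lower genes in acetate than in raffinose log phase, 193 higher genes in acetate than in raffinose at 48 h, and 9 (glucose 48 h), 3 (quantile) and 3 (total reads) genes that rose on acetate and fell on glucose, in place of 5. Except where a filter or a group was itself changed, the cause of these shifts was not tested.

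Leaving out 1 glucose replicate at a time gave 956 to 1002 genes higher and 887 to 958 lower in log phase, and 322 to 360 higher and 175 to 202 lower against glucose 48 h. Of 142 list counts 126 stayed and 16 moved, and of 298 values of single named genes at 72 h, against log phase or glucose 72 h, 208 moved by less than the replicate SD, none reversed and 13 no longer passed 2-fold. Scaling to total nuclear reads moved the median of all genes by 0.21 at 48 h, 0.22 at 72 h and 0.24 between the media in log phase. No paired analysis was possible because each acetate group holds 1 sample and no test was made. Depth limits genes with few reads in log phase, such as SPS2 and MIG2, whose intervals are wide.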

Other observations

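GDH2, encoding the NAD-dependent glutamate dehydrogenase that releases ammonium from glutamate, read 25276, 7520 and 7449 normalised counts at acetate log, 48 h and 72 h, 1373 at glucose 72 h and at most 3002 in any other wild type sample. SIP18, a hydrophilin gene of osmotic stress and desiccation, read 1029, 604 and 2439, with 94.1 at glucose 72 h and at most 225 in any other wild type sample. HSP12, a membrane-associated stress protein gene, read 27935, 10612 and 30101, with 4885 at glucose 72 h and at most 11984 in any other wild type sample, so its 48 h value lay within their range. SIP18 and HSP12, like NCE103, were 2-fold or more higher at 72 h than at 48 h. These 3 genes, GDH2, SIP18 and HSP12, were chosen after their values were seen.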
